A study of Mus musculus with 7 samples.

Results

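The genes described here encode the proteins of the extracellular matrix and the enzymes that build it: collagens, matrix glycoproteins with proteoglycans, and the enzymes and chaperone that process and crosslink collagen. They were taken from a list of 48 genes. A gene was measured where the platform annotation gave a probe set that gene as its only symbol, and its brightest such probe set over all arrays was used. In this way 43 of the 48 genes were measured, among 12393 named genes on the array: 13 of 13 collagens, 23 of 27 glycoproteins and 7 of 8 processing and crosslinking genes. Fras1, Spp1, Efemp2, Fbn1 and Loxl2 were not matched and are not analysed here. The samples were mouse primary keratinocytes, the epithelial cells of the epidermis, collected 48 h after transient transfection of siRNA oligonucleotides. Trp63-specific siRNA was given in 5 samples, numbered 1, 2, 3, 4 and 7, and non-specific control siRNA in 2, numbered 5 and 6, each read on 1 Affymetrix array. The labels name no mouse strain or age, do not say whether the oligonucleotide was a single sequence, and do not state whether the replicates came from different cultures. The p-values therefore rest on a spread that may be technical.

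Trp63, the gene of the transcription factor p63, checked the labels: its intensity was 503 ± 31.1 (SD, n = 5) with Trp63 siRNA and 1565 ± 167 (SD, n = 2) with control siRNA, so 32.1% of the control intensity remained. The keratinocyte keratin genes Krt14 (14825 with Trp63 siRNA, 17063 with control siRNA) and Krt5 (11602 and 14460) marked the labelled cell type in both groups. Median intensity lay between 207 and 214 on the 7 arrays, and precision is limited by there being so few of them. The log2 ratio of the 3′ to the 5′ control probe set of beta-actin, a measure of RNA integrity, was 0.19 to 0.32 in the silenced arrays and 0.38 and 0.44 in the controls. The same ratio for Gapdh was -0.14 to -0.09 and -0.03 and -0.02. Both ratios separate the groups, and their part in the results below was not tested.

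Collagens are triple helices of 3 chains. The fibrillar chains (types I, III and V) build the fibres of connective tissue, and type IV chains build the sheet of the basement membrane on which keratinocytes sit. Laminins form a second sheet there, and nidogens and the proteoglycan perlecan tie both together. Fibronectin, thrombospondins, tenascin-C and SPARC are matrix proteins that cells secrete in wounds and that act on adhesion and signalling. Inside the cell, prolyl and lysyl hydroxylases modify new collagen chains and the chaperone HSP47 (Serpinh1) guards their folding, and outside it the lysyl oxidases crosslink the fibres.

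Matrix genes changed in both directions after Trp63 silencing. Counts are given for each class, and differences between classes were not tested. The genes were chosen with earlier results of these data known, so counts beside the shares of all named genes are no test of the list. Of the 43 measured genes 12 rose, 6 fell and 25 did not pass (limma, adjusted p below 0.05), where 8.03% of all named genes rose and 8.57% fell, 16.6% in either direction. Among collagens 5 rose, 2 fell and 6 did not pass. Among glycoproteins 7 rose, 1 fell and 15 did not pass. Among the processing and crosslinking genes none rose by limma (1 at an unadjusted p under 0.05), 3 fell and 4 did not pass. The median log2 difference was 0.16 for the collagens, 0.12 for the glycoproteins and -0.10 for the processing and crosslinking genes, beside -0.04 over all named genes. Differences are given on the log2(intensity + 16) scale, on which dim genes change by less than their intensities do. RNA from fewer cells of a type and less RNA per cell cannot be told apart in such bulk samples. The 5 silenced values lay wholly above both controls for 15 of the 43 genes and wholly below for 7, compared with 14.3% and 24.0% of all named genes, 38.3% in either direction. The groups overlapped in none of the 18 genes that passed.

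**Figure D1:**
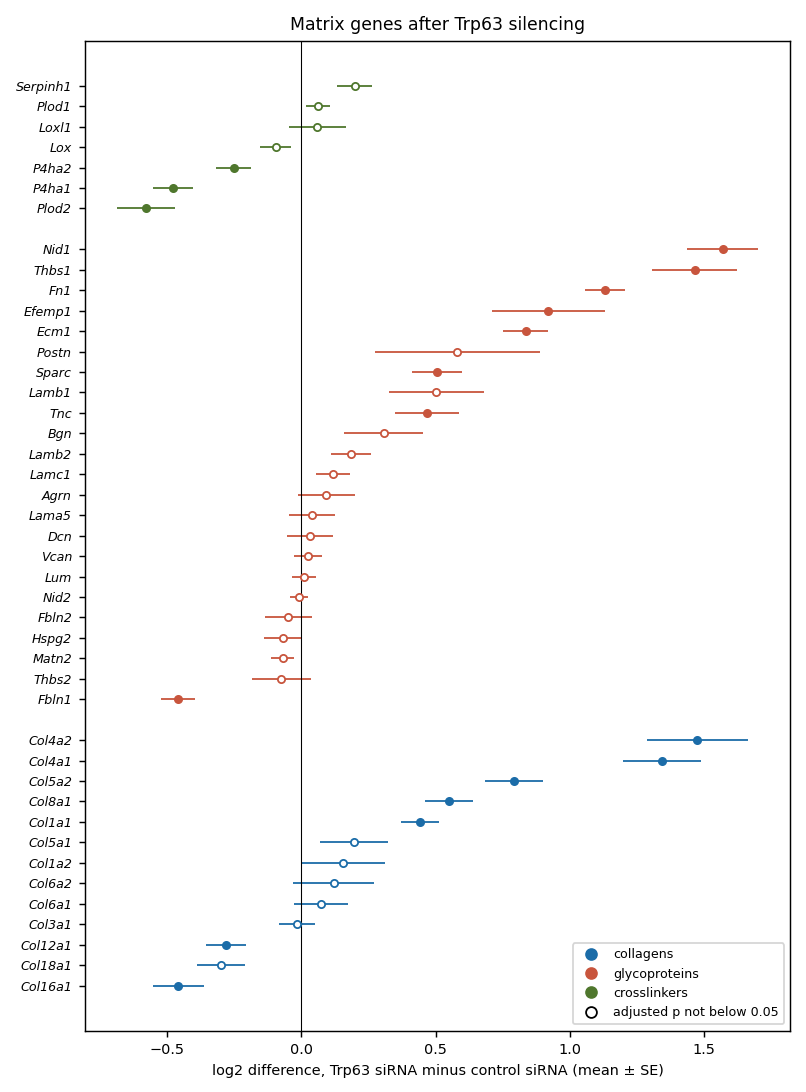
The log2 difference between Trp63 siRNA (n = 5) and control siRNA (n = 2) is plotted for each of the 43 measured matrix genes, with bars for the SE; filled points passed the test. Nid1 (1.57), Col4a2 (1.48) and Thbs1 (1.47) are plotted highest, Nid1 at 0.89 with the mean of its probe sets, and the 3 filled points of the processing and crosslinking genes all lie below 0.

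The type IV collagen pair showed the highest rises among the collagens. Col4a1, which encodes the alpha-1 chain of the basement membrane network, read 457, 391, 545, 589 and 555 in the silenced arrays (in the order 1, 2, 3, 4, 7 here and below) and 195 and 181 in the controls (5, then 6). It rose 2.54-fold (log2 difference of 1.34 with SE 0.14, limma adjusted p = 0.000377). Every silenced array was above both controls, with replicates 1 and 2 the lowest of the silenced arrays. Col4a2, the gene of the partner alpha-2 chain, read 561, 481, 755, 747 and 825 against 229.6 and 225. Replicates 1 and 2 were again the lowest silenced arrays. It rose 2.78-fold (log2 difference of 1.48 with SE 0.19, limma adjusted p = 0.00097). In the RefSeq annotation of GRCm38.p6 both genes are neighbours whose spans overlap, with no protein-coding gene between them. A second Col4a1 probe set differed by 1.36 (limma adjusted p = 0.00092).

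Other collagens that rose did so by less and from dim control levels. Col5a2, the alpha-2 chain of type V collagen, a minor chain that regulates fibre width, read 282, 277, 333, 347 and 365 against 176 and 179. It rose 1.73-fold (log2 difference of 0.79 with SE 0.11, limma adjusted p = 0.00145), and the groups did not overlap. Its second, dimmer probe set differed by 0.18 and just missed the threshold (limma adjusted p = 0.0502). With the mean of all probe sets per gene the Col5a2 difference was 0.48. Col8a1, a short-chain network collagen, read 300.4, 267, 319, 316 and 339.5 against 214 and 196, a 1.47-fold rise (log2 difference of 0.55 with SE 0.089, limma adjusted p = 0.00334). Col1a1, the main chain of type I collagen, read 308, 291, 271, 270.5 and 265 against 207 and 198, a 1.36-fold rise (log2 difference of 0.44 with SE 0.071, limma adjusted p = 0.0032). Its silenced replicates 1 and 2 were the highest, the reverse of the order in Col4a1 and Col4a2. Control means of Col4a1, Col5a2, Col8a1 and Col1a1 lay below 213, the median of all probe sets, so these folds may be understated. Col8a1 and Col1a1 no longer passed when control replicate 6 was left out (limma adjusted p = 0.0559 and 0.0504).

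Both collagens that fell are associated with the surface of fibrils and are not fibre-forming themselves. Col16a1 read 265, 243, 201, 232 and 232 against 312 and 343, and fell 1.37-fold (log2 difference of -0.46 with SE 0.095, limma adjusted p = 0.0115). Col12a1 read 239.6, 212, 229.5, 232 and 227 against 258 and 304, and fell 1.21-fold (log2 difference of -0.28 with SE 0.075, limma adjusted p = 0.0336). Neither passed without control replicate 6 (limma adjusted p = 0.119 and 0.264), and Col12a1 also failed without any one of silenced replicates 2, 3, 4 and 7 (limma adjusted p = 0.0611 to 0.0725). Col18a1, the basement membrane collagen whose fragment is endostatin, just missed the threshold. It read 1701, 1394, 1635, 1643 and 1754 against 1909.9 and 2088 (log2 difference of -0.30 with SE 0.090, limma adjusted p = 0.0526), while its second probe set passed in the same direction (-0.38, limma adjusted p = 0.0294).

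Several partner and neighbouring chains did not pass. The partner of Col1a1 in type I collagen, Col1a2, read 305, 282, 219, 229.9 and 224 against 266 and 186, so the groups overlapped (log2 difference 0.16, 95% interval -0.20 to 0.51, limma adjusted p = 0.541). A second, dimmer Col1a1 probe set did not pass (0.17, limma adjusted p = 0.351). Col5a1, the partner of Col5a2, differed by 0.20 (95% interval -0.09 to 0.48). With arrays grouped by their melanocyte marker level as a block, Col1a2 (0.20, limma adjusted p = 0.0368) and Col5a1 (0.23, limma adjusted p = 0.0223) both passed in the direction of their partners, so the partners are not shown to differ. Col3a1, the protein-coding neighbour of Col5a2 on its chromosome, differed by -0.02 (95% interval -0.17 to 0.13). The neighbours Col6a1 and Col6a2 of type VI collagen differed by 0.07 (95% interval -0.16 to 0.30) and 0.12 (95% interval -0.22 to 0.46). Col3a1, Col5a1 and Col6a1 were dim in both groups, with group means below 213.

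Of the 8 measured adhesive and matricellular glycoproteins 5 rose, none fell by limma (0 at an unadjusted p under 0.05) and 3 did not pass. Thbs1 encodes thrombospondin-1, which binds cells and releases TGF-beta from its latent form. It read 2606, 2419, 3667, 3423 and 3503 against 1061 and 1151, with no overlap, and rose 2.76-fold (log2 difference of 1.47 with SE 0.16, limma adjusted p = 0.000415). Fn1, the fibronectin gene, read 757, 681, 714, 715 and 726 against 339 and 301. Its silenced arrays lay close together, and it rose 2.19-fold (log2 difference of 1.13 with SE 0.074, limma adjusted p = 3.0e-05). A second, dim Fn1 probe set (114 against 101) did not pass (0.15, limma adjusted p = 0.0724). With the mean of all probe sets per gene the Fn1 difference was 0.64.

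Ecm1, which encodes a secreted glycoprotein of skin that binds perlecan and other matrix proteins, read 661, 555, 635, 630.2 and 616 against 320.5 and 359. It rose 1.78-fold (log2 difference of 0.84 with SE 0.084, limma adjusted p = 0.000271) with wide separation. Sparc, whose collagen-binding product is also called osteonectin, read 2049.6, 1845, 2258, 2310.3 and 2268 against 1435 and 1574, a 1.42-fold rise (log2 difference of 0.50 with SE 0.093, limma adjusted p = 0.00634), and its second probe set passed too (0.53, limma adjusted p = 0.00108). Tnc, the gene of tenascin-C, an anti-adhesive protein of wound edges, read 1116, 886, 1113, 1214 and 1194 against 741 and 839, a 1.38-fold rise (log2 difference of 0.47 with SE 0.12, limma adjusted p = 0.0282). Silenced replicate 2 stood apart from the others and only just above the higher control. Sparc no longer passed when control replicate 5 was left out (limma adjusted p = 0.0723). Tnc no longer passed when control replicate 5 (limma adjusted p = 0.216) or 6 (0.0868), or any one of silenced replicates 3, 4 and 7 (0.0556 to 0.0639), was left out.

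Postn, which encodes periostin, a matrix protein of injured and remodelled tissue, split the silenced arrays. It read 343, 370.3 and 374 in silenced replicates 3, 4 and 7, but 169 and 178 in silenced replicates 1 and 2, next to 179.9 and 172 in the controls. The log2 difference of 0.58 (SE 0.31, limma adjusted p = 0.238) is a mean over these unlike arrays. Thbs2, the relative of Thbs1, was dim and differed by -0.08 (95% interval -0.32 to 0.17), and Matn2, a filament-forming matrilin, was near the floor in both groups, with means of 95.2 and 101. Near the floor here means that both group means were below 119, the 25th percentile of all probe sets.

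Among 8 measured basement membrane glycoproteins 1 rose, none fell by limma (0 at an unadjusted p under 0.05) and 7 did not pass. The rise was that of Nid1, which encodes nidogen-1, the link between laminin and collagen IV. Nid1 read 416, 464, 410.2, 364 and 375 against 152 and 103, a 2.97-fold rise (log2 difference of 1.57 with SE 0.13, limma adjusted p = 0.00011). Its control mean of 128 was dim and control replicate 6 lay below 119, so the fold may be understated. The controls stood apart from each other, yet every silenced array was far above both. A second Nid1 probe set, at 194 against 166, did not pass (0.20, limma adjusted p = 0.0921), and with the mean of all probe sets per gene the difference was 0.89. Nid2, its paralogue, was near the floor, with means of 79.8 and 80.3.

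The listed laminin chains and heparan sulphate proteoglycans of the membrane did not follow Nid1 past the threshold. Lamb1, the beta-1 chain, read 695, 583, 920.2, 858 and 906 against 488 and 612, with silenced replicate 2 below the higher control (log2 difference of 0.50 with SE 0.18, limma adjusted p = 0.0896). Lamc1, the gamma-1 chain with which it assembles, read 267 to 278 in the silenced arrays and 235 and 267 in the controls (log2 difference 0.12, 95% interval -0.03 to 0.26). The other Lamb1 probe sets differed by 0.54 and 0.24 (limma adjusted p = 0.0788 and 0.198). Lama5, the alpha-5 chain of the laminins of epidermal basement membrane, differed by 0.04 (95% interval -0.15 to 0.24), and Lamb2 by 0.18 (95% interval 0.02 to 0.35, limma adjusted p = 0.13). A second Lama5 probe set differed by 0.20 (limma adjusted p = 0.23). Hspg2, the perlecan gene, differed by -0.07 (95% interval -0.23 to 0.09) and Agrn, the agrin gene, by 0.09 (95% interval -0.14 to 0.33).

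The 3 measured fibulins each gave another result. Efemp1, which encodes fibulin-3, read 1165, 1096, 1802, 1574 and 1614 against 610.3 and 908, and rose 1.89-fold (log2 difference of 0.92 with SE 0.21, limma adjusted p = 0.0179). Its arrays spread widely in both groups, and the call was lost without control replicate 5 (limma adjusted p = 0.187). Fbln1, the gene of fibulin-1, which binds fibronectin and basement membranes, read 199, 180.2, 181, 192 and 201 against 259 and 278. It fell 1.38-fold (log2 difference of -0.46 with SE 0.064, limma adjusted p = 0.00154), the only glycoprotein of the 23 to fall, and its second probe set also passed (-0.36, limma adjusted p = 0.0112). Fbln2 differed by -0.05 (95% interval -0.25 to 0.15).

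None of the 4 proteoglycan genes passed by limma (0 at an unadjusted p under 0.05). Bgn, the biglycan gene, read 278, 258, 202, 219 and 214 against 222 and 154, and its groups overlapped (log2 difference of 0.31 with SE 0.15, limma adjusted p = 0.195). Its other probe sets differed by -0.02 and 0.01. Dcn, the decorin gene, differed by 0.03 (95% interval -0.16 to 0.22) and Vcan, the versican gene, by 0.02 (95% interval -0.09 to 0.14), both from dim levels. Lum, the lumican gene, was near the floor, with means of 89.0 and 88.2.

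**Figure D2:**
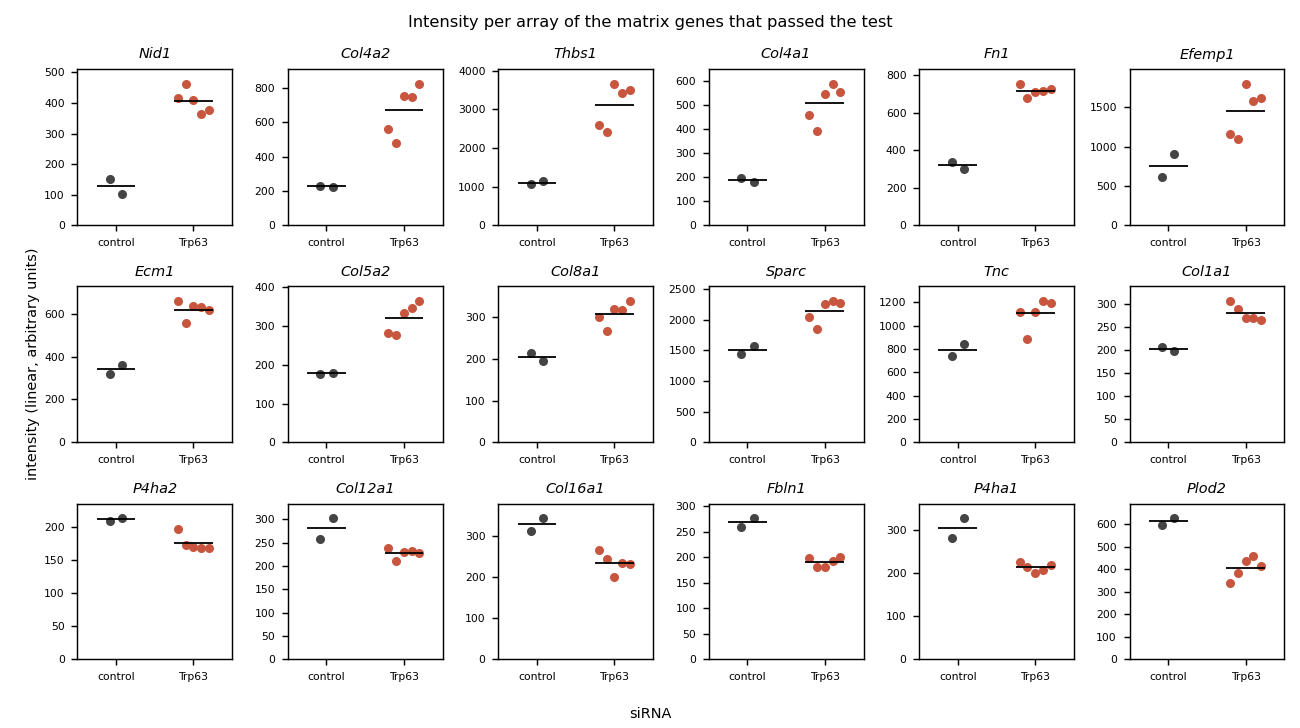
Intensity on a linear scale from 0 is plotted for each array of the 18 matrix genes that passed the test, control siRNA in grey (n = 2) and Trp63 siRNA in red (n = 5), with a line at each group mean. In all 18 the 5 silenced arrays lie on 1 side of both controls, 12 above and 6 below.

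The enzymes that hydroxylate collagen chains were lower where they passed. Plod2, the lysyl hydroxylase of the telopeptides, which sets the kind of crosslink, read 341, 384, 436, 459.8 and 416 against 598 and 629. It fell 1.50-fold (log2 difference of -0.58 with SE 0.11, limma adjusted p = 0.00677), and a second probe set differed by -0.54 (limma adjusted p = 0.00418). P4ha1, the catalytic subunit of the main prolyl 4-hydroxylase, read 226, 214, 201, 209 and 220.2 against 281 and 329, and fell 1.39-fold (log2 difference of -0.48 with SE 0.074, limma adjusted p = 0.00266). Its second, dimmer probe set did not pass (-0.12, limma adjusted p = 0.0765). P4ha2, its isoenzyme, read 197, 173, 170.3, 169 and 168 against 209.5 and 214, a 1.19-fold fall (log2 difference of -0.25 with SE 0.066, limma adjusted p = 0.0302). P4ha2 was dim in both groups and no longer passed when control replicate 5 (limma adjusted p = 0.126) or 6 (0.164), or any one of silenced replicates 2, 3, 4 and 7 (0.0607 to 0.0705), was left out. Plod2 no longer passed when control replicate 6 was left out (limma adjusted p = 0.0773).

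The other 4 genes of this class did not pass. Serpinh1, the gene of the collagen chaperone HSP47, read 1193, 1095, 1208, 1187 and 1189 against 986 and 1057, wholly above the controls (log2 difference of 0.20 with SE 0.066, limma adjusted p = 0.0761). Its second probe set differed by 0.01 (limma adjusted p = 0.94). Plod1, another lysyl hydroxylase, differed by 0.06 (95% interval -0.04 to 0.17). The lysyl oxidases Lox and Loxl1 differed by -0.10 (95% interval -0.23 to 0.03) and 0.06 (95% interval -0.18 to 0.30). A second Lox probe set differed in the other direction (0.18, limma adjusted p = 0.0616). Plod1, Lox and Loxl1 were dim in both groups.

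Promoter windows of RefSeq (GRCm38.p6) were matched for 30 of the 43 genes, among them 8 that rose and 4 that fell, and the 250 bases before the start were searched on both strands. The 6 motifs were chosen after the results were seen. The p53 family half-site, the decamer that p63 can bind, occurred in 2 of the 8 windows of genes that rose (Nid1 and Sparc) and 0 of the 4 that fell, and in 7.13% of all 32851 windows. The AP-1 motif TGANTCA occurred in 2 of 8 (Ecm1 and Efemp1) and 0 of 4, and in 6.75% of all windows. The core of the hypoxia response element, ACGTG or GCGTG, which can overlap itself on the opposite strand, occurred in 3 of 8 (Efemp1 and the neighbours Col4a1 and Col4a2, which are not independent windows) and 4 of 4 (Col16a1, P4ha1, P4ha2 and Fbln1), and in 38.6% of all windows. The windows of Col4a1, Col4a2, P4ha1 and Ecm1 overlap annotated transcripts, are not shown, and are included in these counts. The TEAD motif GGAATG occurred in 1 of 8 (Nid1) and 0 of 4 (12.6% of all windows), the GC box GGGCGG in 6 of 8 and 3 of 4 (32.7%), and TATAAA in 2 of 8 (Ecm1 and Tnc) and 0 of 4 (12.4%). The 32851 windows outnumber the 12393 named genes, so their shares are not those of measured genes alone. Whether any motif count differs from its share was not tested. A match is a description of the letters and not of binding. The windows of Nid1 and Sparc are shown with the p53 family half-site in capitals, since both genes rose, and those of P4ha2 and Fbln1 with the hypoxia core in capitals, since both fell. The Nid1 window is chr13:13437352-13437601 on the plus strand and the Sparc window chr11:55420081-55420330 on the minus strand. The P4ha2 window is chr11:54100674-54100923 and the Fbln1 window chr15:85205699-85205948, both on the plus strand.
Nid1: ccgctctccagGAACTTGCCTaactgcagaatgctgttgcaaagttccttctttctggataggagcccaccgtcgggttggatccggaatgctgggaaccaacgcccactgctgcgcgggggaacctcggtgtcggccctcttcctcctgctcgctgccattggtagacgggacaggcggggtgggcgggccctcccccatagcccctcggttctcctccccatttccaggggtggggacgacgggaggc
Sparc: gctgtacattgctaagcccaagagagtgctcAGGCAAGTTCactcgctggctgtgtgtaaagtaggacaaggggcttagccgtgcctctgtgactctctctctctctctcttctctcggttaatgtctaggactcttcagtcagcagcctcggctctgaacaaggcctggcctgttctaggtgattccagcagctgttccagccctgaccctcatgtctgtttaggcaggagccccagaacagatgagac
P4ha2: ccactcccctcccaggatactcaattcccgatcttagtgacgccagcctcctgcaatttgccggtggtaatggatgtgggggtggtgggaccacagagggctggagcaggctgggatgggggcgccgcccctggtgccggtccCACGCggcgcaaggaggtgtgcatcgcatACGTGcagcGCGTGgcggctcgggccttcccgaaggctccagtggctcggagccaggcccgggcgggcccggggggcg
Fbln1: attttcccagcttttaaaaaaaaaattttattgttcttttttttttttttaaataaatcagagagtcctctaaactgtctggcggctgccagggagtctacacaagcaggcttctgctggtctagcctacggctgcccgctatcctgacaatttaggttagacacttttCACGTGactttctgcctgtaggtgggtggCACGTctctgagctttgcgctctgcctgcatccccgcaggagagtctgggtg
The match in Nid1 began 239 bases before the start and that in Sparc 219 bases before it. The 3 matches in P4ha2 began 107, 78 and 69 bases before the start. In Fbln1 the matches at 81 and 80 bases are the same palindrome read on each strand, and the third began 52 bases before the start.

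The silenced arrays were not alike. Melanocyte markers, genes of the pigment cells that a primary culture of epidermis can hold, split the arrays: their mean log2 level over 9 genes was 9.51, 9.54 and 9.43 in silenced replicates 1 and 2 and control replicate 5, and 8.97 to 9.03 in silenced replicates 3, 4 and 7 and control replicate 6. In 11 of the 43 genes silenced replicates 1 and 2 were both lower than each of replicates 3, 4 and 7: Col4a1, Col4a2, Col5a2, Col8a1, Lamb1, Agrn, Thbs1, Sparc, Postn, Efemp1 and Plod2. In 13 they were both higher: Col1a1, Col1a2, Col3a1, Col5a1, Col6a1, Col6a2, Col16a1, Lamb2, Nid1, Thbs2, Bgn, Loxl1 and P4ha2. Over all named genes 15.9% were lower and 25.3% higher in both, so this order is common on these arrays. Control replicate 5 was below control replicate 6 in 7 of the 11 and above it in 10 of the 13. The order of the controls was not counted over all named genes, so these counts have no share beside them.

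**Figure D3:**
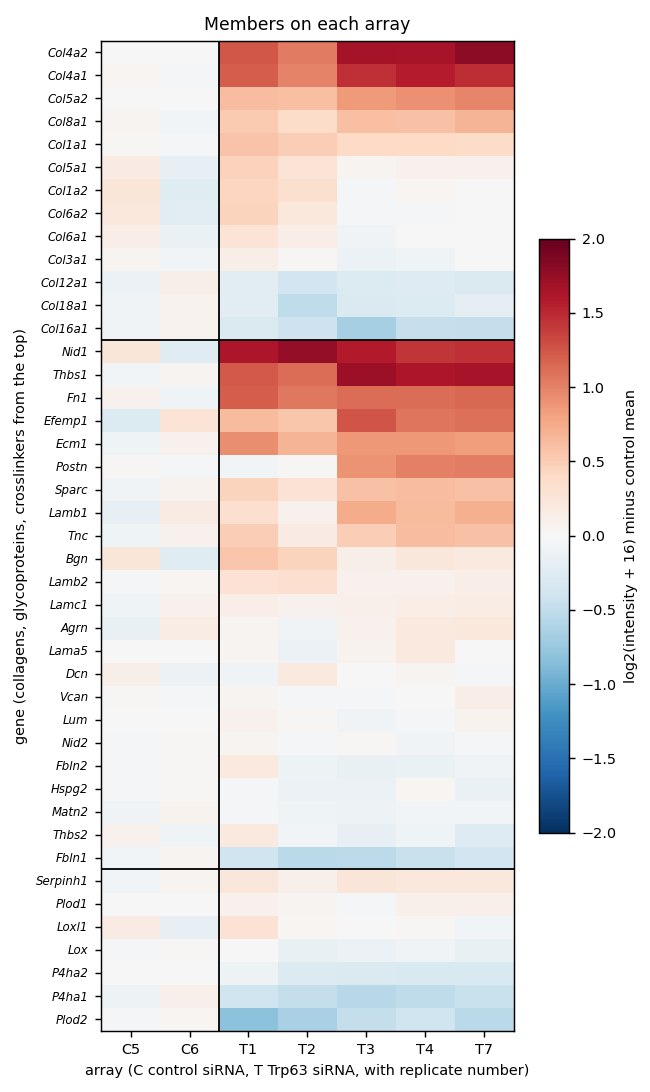
Colour gives log2(intensity + 16) minus the mean of both controls for each of the 43 genes (rows, by class) on each of the 7 arrays (columns, C for control siRNA and T for Trp63 siRNA). Silenced replicates 1 and 2 are paler than 3, 4 and 7 in Col4a1, Col4a2 and Postn and deeper in Col1a2, Col6a2 and Bgn.

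Differences were also read within each set of arrays of like melanocyte level, where the direction of the 18 genes that passed is fixed by their lack of overlap. Against control replicate 5, silenced replicates 1 and 2 differed by 1.06 for Col4a1, 1.12 for Col4a2, 1.23 for Thbs1 and 1.44 for Nid1 on the log2 scale. Against control replicate 6, silenced replicates 3, 4 and 7 differed by 1.55, 1.72, 1.60 and 1.74 for the same genes. The difference was larger in the second set in 14 of the 18 genes and in the first in Col1a1, Ecm1, Efemp1 and Plod2, with 1 control in each set and no test of the gap. It was also larger in the second set in 65.6% of all 2057 named genes that passed. Postn differed by -0.05 in the first and 1.01 in the second. With the melanocyte split as a block in limma the same 18 genes passed, and 7 more did: Lamb1 (0.46, adjusted p = 0.00294), Bgn (0.34, 0.00348), Col18a1 (-0.31, 0.0149), Col5a1 (0.23, 0.0223), Col1a2 (0.20, 0.0368), Serpinh1 (0.19, 0.0373) and Lamb2 (0.20, 0.0437). Over all named genes the block gave 1448 that rose and 1688 that fell, beside 995 and 1062 without it. More calls with the block are therefore not particular to matrix genes. The 18 matrix genes also all passed without silenced replicates 1 and 2. In the first set, with its lone control, their differences were smallest for P4ha2 (-0.17), Col12a1 (-0.18) and Col16a1 (-0.28). The part of the melanocyte level in these differences was not tested further.

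**Figure D4:**
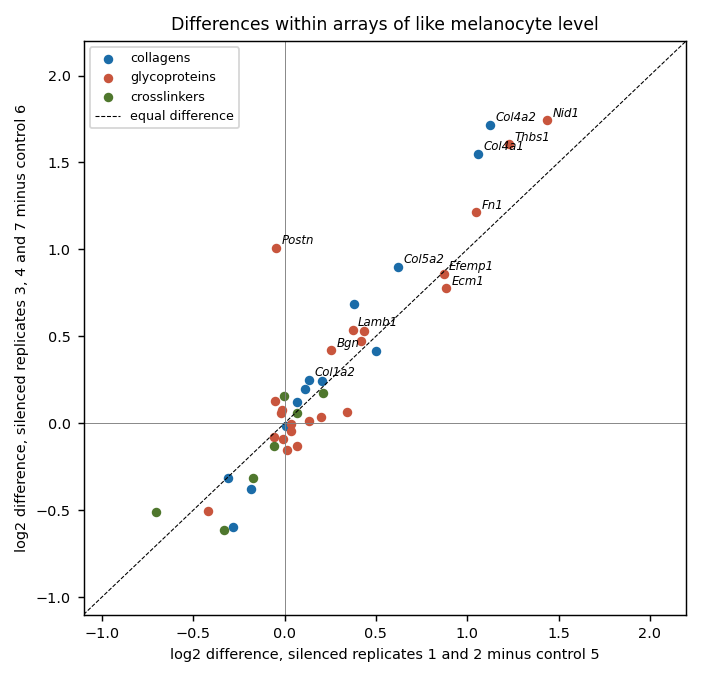
Each point is 1 of the 43 genes, with the log2 difference of silenced replicates 1 and 2 from control 5 on the x axis and that of silenced replicates 3, 4 and 7 from control 6 on the y axis; the dashed line marks equal differences. Postn stands apart at -0.05 and 1.01, and Nid1, Col4a2, Thbs1 and Col4a1 lie above the line.

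Other genes of the matrix, from lists of collagens, glycoproteins and collagen processing genes outside the 48, gave a mixed count. Of 21 other collagens 1 rose and 5 fell, of 52 other glycoproteins 5 rose and 5 fell, and of 19 other processing genes 2 rose and 2 fell. Over all named genes 8.03% rose and 8.57% fell, and the glycoproteins (9.62% each way) and processing genes (10.5% each way) were near those shares. The collagens that fell were led by those that anchor keratinocytes to the dermis. Col17a1, the transmembrane collagen of hemidesmosomes, fell 1.95-fold (log2 difference of -0.96 with SE 0.10), and Col7a1, of the anchoring fibrils, fell 1.62-fold (-0.69, SE 0.11, limma adjusted p = 0.0029). Col15a1 and Col14a1 fell 1.39-fold and 1.15-fold, the latter dim and lost without either control (limma adjusted p = 0.0732 and 0.0889). Col4a3, another type IV chain, rose 1.36-fold from a dim level (139 against 97.1). The type IV chains Col4a4, Col4a5 and Col4a6 did not pass, with log2 differences of -0.08, 0.49 and -0.09 (limma adjusted p = 0.392, 0.0611 and 0.313).

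Among the other glycoproteins Ccn2, Ccn1 and Igfbp7 rose, and Tgfbi and the laminin chains Lamb3 and Lama3 fell. Lamb3 fell 1.78-fold (log2 difference of -0.83 with SE 0.12, limma adjusted p = 0.00211). Lama3 fell 1.46-fold (-0.55, SE 0.15, limma adjusted p = 0.0387). The laminin chains Lama1, Lama2 and Lama4 did not pass, with log2 differences of -0.08, -0.10 and 0.01 (limma adjusted p = 0.203, 0.121 and 0.927). Ccn2 and Ccn1, matricellular growth factor partners, rose 3.16-fold (log2 difference of 1.66 with SE 0.091) and 2.17-fold (1.12, SE 0.082). Igfbp7, a secreted binding protein found in basement membranes, rose 3.16-fold (1.66, SE 0.23, limma adjusted p = 0.00145), whereas Tgfbi, a collagen-binding adhesion protein, fell 4.81-fold (-2.27, SE 0.21). Of the processing genes Loxl4, a lysyl oxidase, rose 1.82-fold (0.86, SE 0.064) and Ppib, a prolyl isomerase of collagen folding, 1.15-fold. Crtap and P3h4, both of the complexes that modify collagen in the endoplasmic reticulum, fell 1.41-fold and 1.45-fold. Ppib, Crtap and P3h4 no longer passed when control replicate 6 was left out (limma adjusted p = 0.0949, 0.158 and 0.0675), nor did P3h4 when control replicate 5 was (0.151).

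Fibroblasts, endothelium and smooth muscle also make much of this matrix, so their markers were read on the same arrays. Of 15 fibroblast markers outside the 48 genes none rose by limma (0 at an unadjusted p under 0.05) and 1 fell, Tcf21, which was near the floor in both groups (92.4 against 101) and no longer passed when control replicate 5 or 6 was left out (limma adjusted p = 0.146 and 0.201). Their summed intensity was 1999 to 2170.0 in the silenced arrays and 2002 and 2134 in the controls, 13 of the 15 were below 213 in both groups, and 7 of these were near the floor. The brightest, Thy1 and Clec3b, read 230.2 against 191 (log2 difference 0.25, limma adjusted p = 0.223) and 215 against 221. The 1 fall among these 15 markers is near the share of all named genes that fell, 8.57%. Of 10 endothelial markers none passed by limma (0 higher and 2 lower at an unadjusted p under 0.05), with summed intensity of 1287 to 1427 against 1330 and 1449, and the brightest, Eng and Emcn, differed by 0.03 and -0.04. Of these 10, 9 were below 213 in both groups and 5 were near the floor, so a change in them could be missed. Of 8 smooth muscle and pericyte markers 2 rose, Acta2 (4113 against 2661, 1.55-fold) and Tagln (398 against 229, 1.69-fold). The summed intensity of all 8 was 5516 to 5745 against 3755 and 4287. Acta2 made up most of this sum, and the median log2 difference of the 8 was 0.05. Tagln no longer passed when control replicate 6 was left out (limma adjusted p = 0.142). The smooth muscle genes Myh11, Cnn1 and Des did not pass. Over all named genes 8.03% rose, and whether 2 of these 8 exceeds that share was not tested.

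Of 9 melanocyte markers none passed by limma (0 at an unadjusted p under 0.05), with summed intensity of 7112 to 12379 in the silenced arrays and 6962 and 10461 in the controls. Their brightest members, Dct and Pmel, differed by -0.01 and 0.16. Of 12 immune cell markers Cd14 (1.44-fold) and Cd68 (1.51-fold) rose and Tyrobp fell (1.15-fold), while summed intensity was 2070.5 to 2298 against 2013 and 2120.3. Over all named genes 8.03% rose and 8.57% fell, so the 1 fall among these 12 is near that share. Whether the 2 rises exceed the share that rose was not tested. In both groups 8 of the 12 were below 213, and 4 of these were near the floor. Csf1r and Cd3e were the brightest of the 12, with log2 differences of -0.06 and -0.18. Cd68 no longer passed when control replicate 6 or silenced replicate 2 or 7 was left out (limma adjusted p = 0.226, 0.0552 and 0.052), nor did Tyrobp when either control was (0.0971 and 0.112). Of 11 keratinocyte markers 9 fell (Itga6, Col17a1, Krt14, Perp, Itgb4, Dsp, Krt15, Krt5 and Jup) and Cdh1 rose, and their summed intensity was 52497 to 56807 against 67488 and 71070.2.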

How the data were processed

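Intensity values, as deposited, were on a linear scale, with 1 value for each probe set on each array; per the labels' protocols, Trizol-extracted total RNA had been made into biotinylated cRNA by the standard Affymetrix procedure. Probe summary, background correction and normalisation by the authors are not given in the sources used here. Array medians of log2(intensity + 16) lay within 0.04, so the deposited intensities were used unscaled. Of 22690 probe sets 64 controls were left out, and the remaining 22626 entered limma 3.58.1 under R 4.3.3 (lmFit, eBayes with trend, two-sided, Benjamini-Hochberg over all 22626, threshold 0.05, 95% intervals from the same fit). The annotation gave 20380 probe sets 1 symbol, 691 several and 1555 none. All 43 measured genes are reported; of the other matrix lists, up to 4 genes with the smallest p among those that passed are named, and of the marker lists those that passed and the 2 brightest. Col4a3, Col4a4, Col4a5, Col4a6, Lama1, Lama2, Lama3, Lama4, Lamb3, Myh11, Cnn1 and Des were named after their values were seen. Members and lists were chosen with earlier results of these data known. The fit was tested on simulated data. Alternatives covered normalisation, pseudocount, filters, variance model, array weights, probe set rule, a block and left-out arrays. Figures were drawn with matplotlib 3.10.9.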

Additional observations from a re-analysis of the deposited data

Results flagged for a closer look

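In each group of 5 silenced arrays the gap between the highest or lowest array and its neighbour was divided by the whole range, and 8 of 62 genes examined had a ratio above 0.71, 6 of them among the 43 matrix genes; chance alone passes this value in about 1 in 20 groups. Tnc read 886 in silenced replicate 2 and 1113 to 1214 in the other silenced arrays. Serpinh1 was also lowest in replicate 2, at 1095 against 1187 to 1208, as was Cd14, at 224 against 261 to 277. Silenced replicate 1 was highest for Fbln2 (189.8 against 146 to 155), Loxl1 (152 against 116 to 125) and P4ha2 (197 against 168 to 173). Plod1 read 125 in silenced replicate 3 and 135 to 138 elsewhere, and Tcf21 read 97.2 in replicate 3 and 90.7 to 91.7 elsewhere.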

How the results depend on the processing

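All 18 matrix genes that passed kept their sign in every alternative in which they were tested, which their lack of overlap fixes where arrays are left out, and 9 passed in each of the 18 planned ones that tested them: Col4a1, Col4a2, Col5a2, Nid1, Fn1, Thbs1, Ecm1, Fbln1 and P4ha1. The filter at the 50th percentile did not test Fbln1 and P4ha2, leaving 0 glycoproteins that fell. Efemp1 was also lost under robust eBayes (limma adjusted p = 0.051). Of the genes that did not pass, 17 changed sign in some alternative. Leaving out each array in turn gave 9 to 14 matrix genes that rose and 2 to 7 that fell, for collagens 3 to 5 and 0 to 3, for glycoproteins 4 to 8 and 1 to 1, for processing and crosslinking genes 0 to 1 and 1 to 3, for the other matrix lists 7 to 10 and 8 to 15, and over all named genes 465 to 1280 and 344 to 1893. Over all named genes 465 rose without control replicate 6, and 344 fell without it, 523 without control replicate 5, 703 without silenced replicate 7 and 1893 without silenced replicate 1. Without control replicate 6 these were 3 collagens that rose, 0 that fell, 1 processing gene that fell and 2 matrix genes that fell in all; without control replicate 5, 4 glycoproteins rose. Without any one of silenced replicates 3, 4 and 7, 1 collagen fell. A lone control is assumed to vary like the silenced arrays. Serpinh1 made 1 processing gene that rose without the variance trend, with array weights, with the melanocyte block, without silenced replicate 2, without silenced replicates 1 and 2 and in the arrays of low melanocyte level alone. Those arrays gave 19 matrix genes that rose, 8 of them collagens, and 2 glycoproteins that fell. The arrays of high melanocyte level alone gave 2 matrix genes, 0 collagens and 1 processing gene that fell, and 7 of the other lists. The block gave 13 of the other lists that rose. Over all named genes, 995 rose and 1062 fell; 1673 fell with array weights and 1688 with the block. Without silenced replicates 1 and 2, 1537 rose and 2217 fell; the arrays of high melanocyte level gave 508 and 537, and those of low level 1748 and 2232. The runs of 1 melanocyte level and without replicates 1 and 2 were chosen after seeing the data, and why these counts moved was not tested. A block for bacterial spike controls was not run, since its high part held no control. No paired analysis was possible because the groups share no replicate number. With 2 controls and dim probe sets near 119 or below, small differences could not be resolved.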
